A study of Mus musculus with 9 samples.

Results

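Metabotropic and kainate glutamate receptor genes were examined in the striatum of mice that differ in *Shank3* dosage. The group was chosen by gene symbol and holds *Grm2*, *Grm3*, *Grm4*, *Grm5*, *Grm7*, *Grik1*, *Grik2*, *Grik3* and *Grik5*. All 9 were found by their Ensembl identifiers among the 15464 genes of the table, and all 9 were among the 14239 genes with enough expression to be tested (10 or more normalized counts in 3 or more libraries). RNA-seq was performed on the striatum of male C57BL/6J mice aged 10 to 12 weeks, with 3 wild-type (WT), 3 *Shank3* heterozygous (HET) and 3 *Shank3* knock-out (KO) mice and 1 library per mouse. HET and KO mice carry the *Shank3B* allele, in which a stretch of central *Shank3* exons is targeted in every cell of the body, and the WT mice are littermates. Transcripts of *Shank3* that do not need the targeted exons can still be made from this allele. The values are the normalized read counts deposited by the authors, and no depth in reads can be read from them.

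Metabotropic receptors are G protein-coupled glutamate receptors. Group I receptors such as that of *Grm5* couple to Gq and phospholipase C, while group II (*Grm2*, *Grm3*) and group III receptors (*Grm4*, *Grm7*, *Grm8*) couple to Gi/o and lower cAMP, often from presynaptic terminals. Kainate receptors are glutamate-gated ion channels whose subunits come from the *Grik* genes. *Grik1*, *Grik2* and *Grik3* encode subunits that can form channels by themselves, and *Grik4* and *Grik5* encode high-affinity subunits that need one of the former. In the striatum, the receptor encoded by *Grm5* sits around the excitatory postsynapse of medium spiny neurons, the projection neurons of this region, where Homer proteins tie it to the Shank scaffold.

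The libraries differed in ways that the genotype does not explain, and these differences reach the receptor genes. Along the first principal component of all genes tested, which held 33.6% of the variance, the third HET library and the third KO library (HET replicate 3 and KO replicate 3) lay away from the remaining 7. Markers of medium spiny neurons were high in each library (mean normalized count of 22602 for *Ppp1r1b*, 3766 for *Drd1* and 3294 for *Drd2*). Markers of cortical excitatory neurons were also present in each library, and *Slc17a7* lay between 26609 and 43336. The summed count of the 14 medium spiny neuron markers was between 86517 and 167570 in WT, between 116697 and 150437 in HET and between 77454 and 125787 in KO. For the 11 cortical markers the sums were 46137 to 60599, 42310 to 57135 and 47255 to 68308. The choroid plexus marker *Ttr* stayed between 0 and 26.6. In bulk tissue, fewer cells of a type and less RNA per cell cannot be told apart. Over the whole gene, *Shank3* had 7209, 8812 and 6043 normalized counts in the WT libraries, 7575, 7098 and 8049.8 in HET and 10237, 10798 and 10578 in KO. The KO libraries lay above all others, and since the targeted exons are only a part of the gene, this sum does not check the genotype.

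The genes were first ordered by level, as normalized counts per kilobase of merged exon over the 9 libraries. *Grik5* had the highest level, with 1939.6 ± 244 normalized counts per kilobase (SD, n = 9 libraries), at percentile 95.7 of the genes tested. *Grm3*, which in the brain is expressed by astrocytes as well as neurons, followed with 846 ± 149 (SD, n = 9). *Grm5* had 581 ± 121 and *Grik3* 575 ± 113 (SD, n = 9), and this pair did not differ beyond its spread, with *Grm5* the higher in 6 of 9 libraries.

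*Grm4*, *Grm2* and *Grm7* formed a middle tier. Their levels were 353 ± 66.1, 331 ± 110.2 and 317 ± 33.4 normalized counts per kilobase (SD, n = 9), and their ranges overlapped. *Grik2* had 236 ± 36.7 (SD, n = 9), below *Grm7* in each of the 9 libraries although the ranges over all libraries touched. *Grik1* was far lower, with 30.3 ± 6.08 (SD, n = 9), at percentile 18.9, and its range from 20.9 to 41.4 was separate from that of *Grik2*, which started at 177.5. Among neighbours in the order, *Grik5* and *Grm3* were separate as well, while the ranges of the others overlapped. *Grm2* and *Grm7* changed places when the length of the longest coding transcript was used.

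Among these 4 kainate genes, *Grik5* therefore made up most of the summed level per kilobase in each genotype, with 69.4% ± 2.05 in WT, 69.8% ± 2.27 in HET and 69.95% ± 1.43 in KO (SD, n = 3). *Grik3* held 20.8% ± 1.23, 20.25% ± 2.80 and 20.55% ± 2.00 (SD, n = 3), *Grik2* between 5.83% and 10.7% of the sum in single libraries, and *Grik1* between 0.622% and 1.51%. *Grik4*, the other high-affinity subunit, was outside the group and had 133 normalized counts per kilobase. Among the 5 metabotropic genes, *Grm3* held 32.5% ± 3.87 in WT, 36.8% ± 5.29 in HET and 34.8% ± 1.93 in KO (SD, n = 3), and *Grm5* held 25.7% ± 6.06, 23.8% ± 6.71 and 22.9% ± 5.34 (SD, n = 3). These shares use merged exons, and isoforms of different length would change them.

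**Figure D1:**
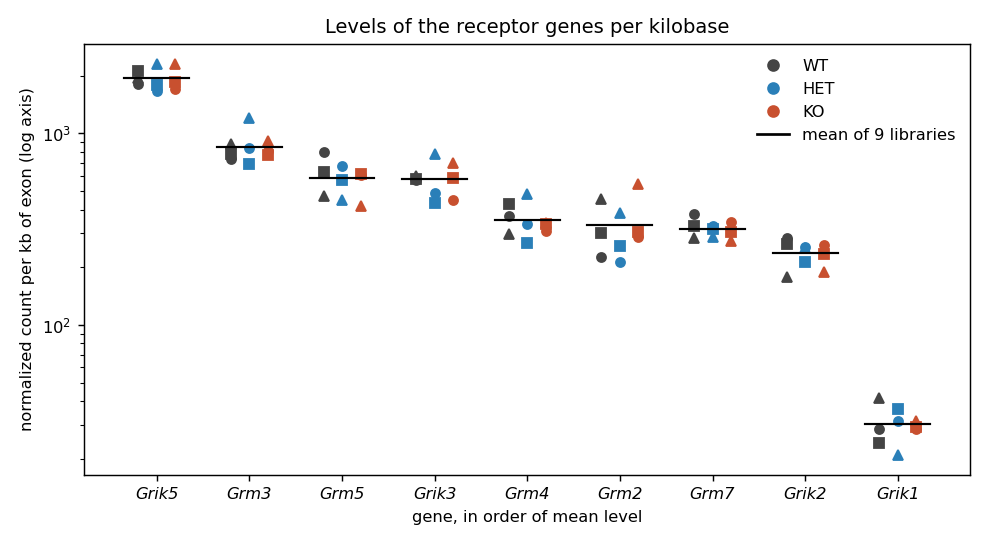
Levels of the 9 receptor genes in each library as normalized counts per kilobase of merged exon, on a log axis, with colours for genotype, circles, squares and triangles for replicates 1, 2 and 3, and a line at the mean of the 9 libraries. *Grik5* stands at the top (mean 1939.6) and *Grik1* at the bottom (mean 30.3), each separate from its neighbour. Among the genes between them, neighbours overlap with each other.

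The question behind the comparison of genotypes is whether receptor genes change their expression when *Shank3* is reduced. No receptor gene passed the test in any comparison. With limma and Benjamini-Hochberg adjustment over the 14239 genes, 0 of 9 receptor genes had an adjusted p under 0.05. This held in HET against WT, in KO against WT and in KO against HET, and the background was 0% of all genes in each. The 0% does not mean that no gene changed. With DESeq2, after an empirical correction of the null distribution of the p-values, the authors reported differentially expressed genes in HET and in KO. They ascribed a rise of *Shank3* in KO to exons that are not targeted, and qRT-PCR with primers for such exons also found it. Here *Shank3* had a log2FC of 0.54 in KO, with an unadjusted p of 0.00195 and an adjusted p of 0.999 (limma). At an unadjusted p under 0.05, 0 of 9 receptor genes passed in each comparison, against 1.11% of all genes in HET, 0.822% in KO and 1.31% for KO against HET. In each comparison, 0 of 9 receptor genes had groups that did not overlap, against 4.45%, 4.54% and 4.45% of all genes.

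The fitted log2FC was smaller than its standard error in 26 of 27 cases, the exception being *Grm2* between KO and HET. In HET the log2FC was negative for 7 of 9 receptor genes with a median of −0.082, and in KO it was negative for 7 of 9 with a median of −0.035. The median over all genes was −0.0027 and 0.0047, and 49.3% and 51.65% of all genes had a positive log2FC. Several receptor genes varied together between libraries, so that their signs are not independent. Between KO and HET, 4 were positive and 5 negative. Both HET and KO are compared with the same 3 WT libraries. The median standard error of the receptor genes was 0.20, against 0.15 over all genes, so that these comparisons leave room for changes. In HET the 95% interval reached beyond a 1.5-fold change for 3 genes (*Grm2*, *Grm5* and *Grik1*), in KO for 2 (*Grm2* and *Grm5*), and between KO and HET for 1 (*Grm2*). The intervals of the other genes stayed within a 1.5-fold change.

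**Figure D2:**
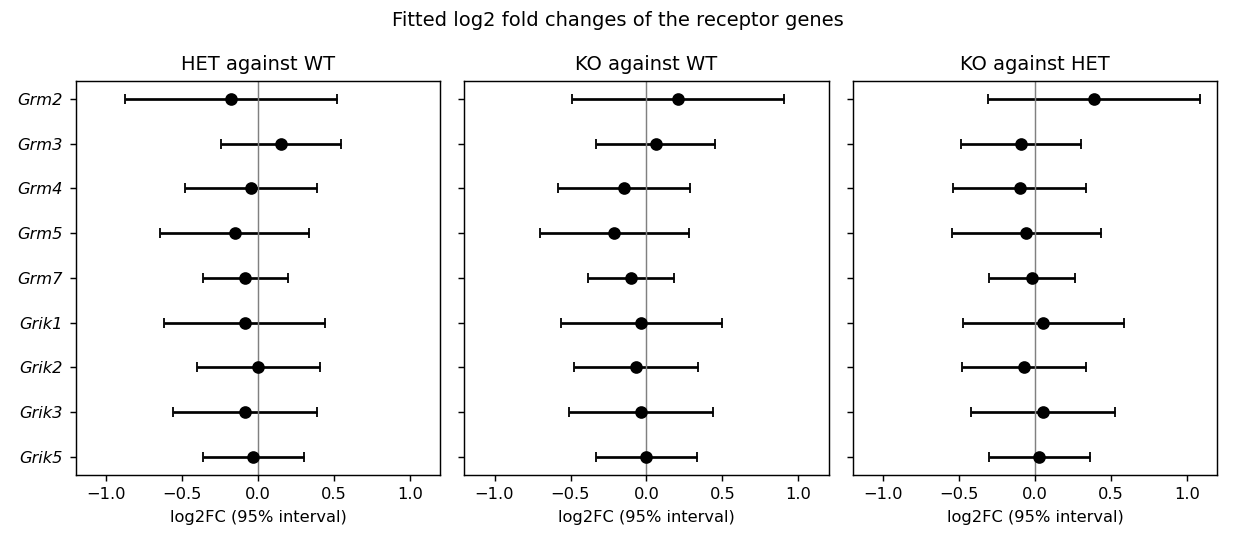
Fitted log2FC of each receptor gene (point) with its 95% interval from limma (bar) for HET against WT, KO against WT and KO against HET, on a common log2 axis. All 27 intervals include 0, and the widest are those of *Grm2*.

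*Grm5* is the group I member and is found on chromosome 7 of GRCm38 at 87584168 to 88134907, on the plus strand. The WT libraries had 8204, 6462 and 4839.7 normalized counts, the HET libraries 6883, 5881 and 4611, and the KO libraries 6186.5, 6265 and 4267. Replicate 3 was the lowest in each genotype, and the genotypes overlapped. The means were 6502 ± 1682 in WT, 5792 ± 1138 in HET and 5573 ± 1131 in KO (SD, n = 3 mice). The log2FC was −0.21 in KO (standard error 0.22, 95% interval −0.70 to 0.28, adjusted p = 0.999 from limma) and −0.15 in HET (interval −0.64 to 0.34). Two-sided exact permutation tests gave p = 0.4 and p = 0.7, where no p below 0.1 is possible with 3 mice in each group. The replicate numbers do not pair WT with HET or KO libraries by their deviations over all genes. Set beside the WT library of the same number, each KO and each HET library was lower for *Grm5*. In HET such a fall in all 3 pairs was found for 2 receptor genes (*Grm2* and *Grm5*) and 9.9% of all genes, and in KO for 2 (*Grm5* and *Grm7*) and 10.6% of all genes.

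*Grm2*, a group II receptor that acts mainly on presynaptic terminals, is found on chromosome 9 at 106643095 to 106656082, on the minus strand. The WT libraries had 1105, 1475 and 2229 normalized counts, the HET libraries 1047, 1269 and 1889, and the KO libraries 1407, 1495.5 and 2662. Replicate 3 was the highest and replicate 1 the lowest in each genotype. The highest of the 9 values was 2.54 times the lowest. This spread was larger than that of the other 8 members, with a residual SD of 0.48 on the log2 scale, at percentile 91.8 of all genes tested. The log2FC was −0.18 in HET (standard error 0.31, interval −0.88 to 0.52), 0.21 in KO (interval −0.49 to 0.91) and 0.39 between KO and HET (interval −0.31 to 1.08), each with an adjusted p of at least 0.9989 from limma.

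Within each replicate number the order of *Grm2* was the same, with HET lowest, WT in the middle and KO highest. The place of WT was narrow, since KO exceeded WT by 0.020 on the log2 scale at number 2. At number 1, HET differed from WT by −0.078. How many of all genes show such an order was not counted. The KO library exceeded the HET library of its number by 0.43, 0.24 and 0.49 on the log2 scale. A rise in all 3 same-numbered pairs from HET to KO was found for 1 of 9 receptor genes and 12.9% of all genes. Same-numbered HET and KO libraries correlated in their deviations over all genes (r = 0.52, 0.28 and 0.51). Different numbers were not compared in this way, so that a pairing of HET with KO by number is not shown. With the replicate number as a block, *Grm2* had an unadjusted p of 0.00195 between KO and HET and an adjusted p of 0.99957 (limma). The count at an unadjusted p under 0.05 was then 1 of 9 receptor genes against 318 of the 14239 genes tested. In KO against WT, the numbers do not pair the libraries. There the same block gave unadjusted p of 0.0436 for *Grm2* and 0.0402 for *Grm5* and an adjusted p of 0.999 for both (limma). These were the 2 of 9 receptor genes with an unadjusted p under 0.05, against 310 of the 14239 genes tested.

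*Grm3*, the other group II receptor, is found on chromosome 5 at 9485541 to 9725170, on the minus strand. It had 2242, 2374 and 2686 normalized counts in WT, 2552, 2099 and 3651 in HET, and 2478, 2338.5 and 2794 in KO. Replicate 3 was again the highest in each genotype, and HET replicate 3 stood above all others. The log2FC was 0.15 in HET (standard error 0.18, interval −0.24 to 0.54) and 0.06 in KO (interval −0.33 to 0.45). Without HET replicate 3 the value in HET was −0.07, and without KO replicate 3 the value in KO was −0.012. In the same libraries, the summed count of 10 astrocyte markers was 67790.1 in HET replicate 3 and between 44809 and 60139 in the others. The mean log2 value of these markers set HET replicate 3 less apart. It was 11.34 in HET replicate 3, 11.29 in KO replicate 3 and 11.28 in WT replicate 3. The part of astrocyte content in the values of *Grm3* was not tested.

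Among the group III receptors, *Grm4* is found on chromosome 17 at 27422387 to 27521403, on the minus strand. Its normalized counts were 2225, 2566 and 1792.5 in WT, 2019, 1607 and 2870.4 in HET, and 1844.5, 2009 and 2032 in KO. The HET libraries held both the lowest and the highest of the 9 values. The log2FC was −0.05 in HET (interval −0.48 to 0.39) and −0.15 in KO (interval −0.58 to 0.29).

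*Grm7*, the other group III member, is found on chromosome 6 at 110645581 to 111567230, on the plus strand. It varied least among the 9 genes, with a residual SD of 0.16. The WT libraries had 2239.8, 1928 and 1678 normalized counts, the HET libraries 1935, 1873 and 1684, and the KO libraries 2018, 1803 and 1610.3. In each genotype replicate 1 was the highest and replicate 3 the lowest. The log2FC was −0.08 in HET (standard error 0.13, interval −0.36 to 0.20) and −0.10 in KO (interval −0.38 to 0.18), and without WT replicate 1 these values were 0.023 and 0.0034. Antisense genes overlap exons of *Grm2* and *Grm7* in the annotation, and neither is listed in the table.

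**Figure D3:**
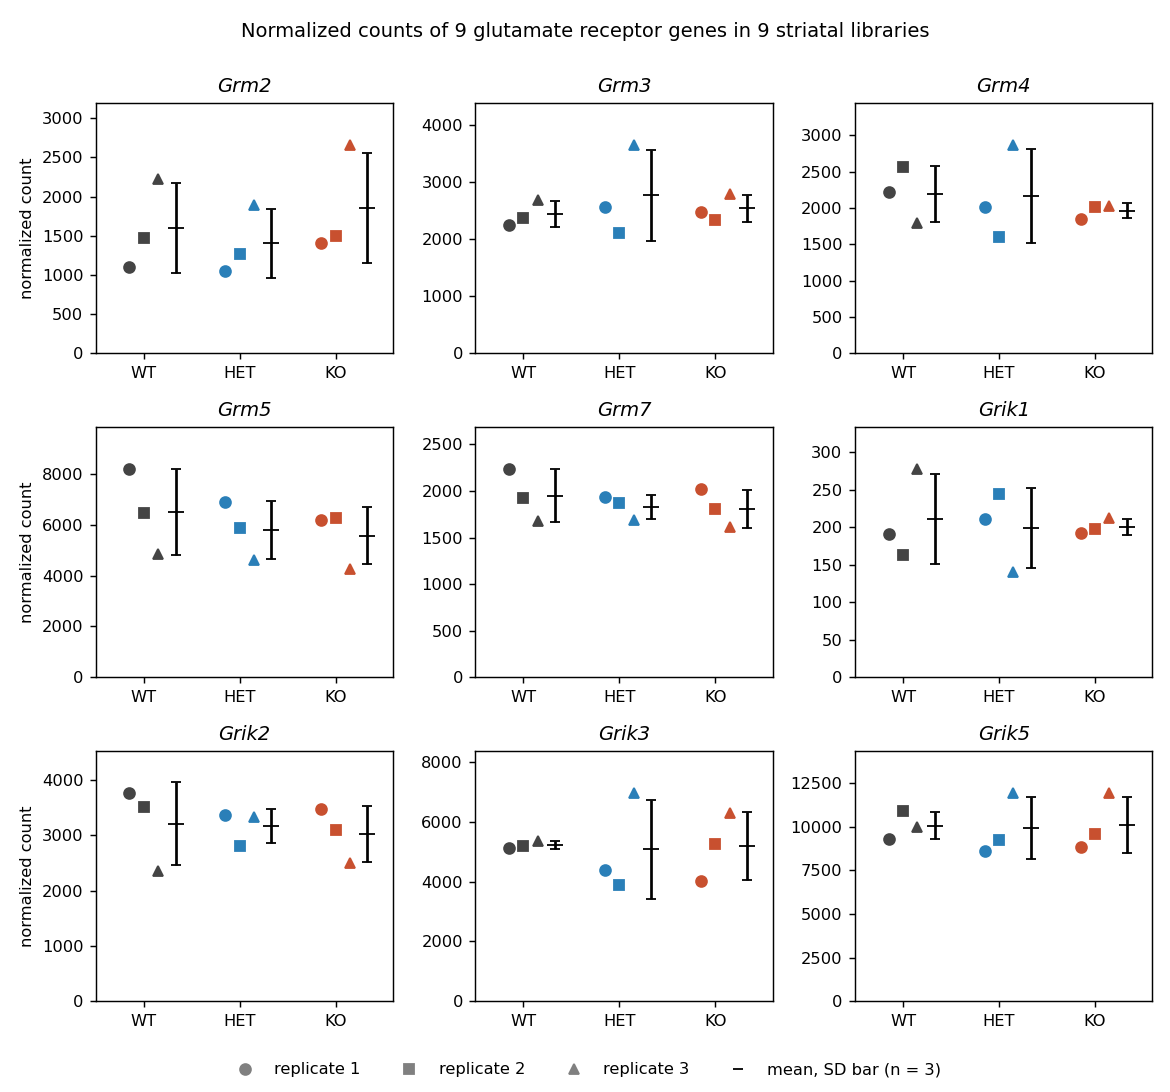
Normalized counts of the 9 receptor genes in WT, HET and KO, one panel per gene with the axis from 0, with circles, squares and triangles for replicates 1, 2 and 3 and a bar for the mean and SD of 3 mice. Genotypes overlap in each panel, while triangles are the highest points in each genotype for *Grm2*, *Grm3* and *Grik3* and the lowest for *Grm5* and *Grm7*.

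Of the kainate subunits, *Grik2* is found on chromosome 10 at 49094833 to 49788766, on the minus strand. It had 3771, 3506 and 2352 normalized counts in WT, 3364, 2807 and 3320.1 in HET, and 3479.5, 3102 and 2489 in KO. Its values were low in WT replicate 3 and KO replicate 3 and not in HET replicate 3. The log2FC was 0.0039 in HET (standard error 0.18, interval −0.40 to 0.41) and −0.07 in KO (interval −0.48 to 0.34).

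*Grik3*, at 125490700 to 125714173 of chromosome 4 on the plus strand, had 5121.5, 5170.3 and 5368 normalized counts in WT. The WT libraries were close together, whereas HET had 4392, 3882 and 6973 and KO 4009.9, 5244 and 6289.7. The log2FC was −0.09 in HET (standard error 0.21, interval −0.56 to 0.39) and −0.03 in KO (interval −0.51 to 0.44). The value in HET rested in part on HET replicate 3, without which it was −0.34 with an unadjusted p of 0.0673 (adjusted p = 0.99998, limma). With KO replicate 3 left out as well, the unadjusted p was 0.0189 and the adjusted p 0.99992 (limma).

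*Grik5*, at 25009849 to 25072346 of chromosome 7 on the minus strand, had 9294, 10864.5 and 9996 normalized counts in WT, 8585.5, 9231 and 11947 in HET, and 8841, 9564 and 11893 in KO. HET replicate 3 and KO replicate 3 were the highest of the 9 libraries. Its log2FC was −0.03 in HET (standard error 0.15, interval −0.36 to 0.30) and −0.0018 in KO (interval −0.33 to 0.33). Without HET replicate 3 and KO replicate 3 the values were −0.17 in HET and −0.13 in KO.

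*Grik1* is found on chromosome 16 at 87895900 to 88290265, on the minus strand. At 191.3, 163.2 and 278.5 normalized counts in WT, 211, 244.8 and 140.4 in HET, and 192.7, 197.4 and 212.9 in KO, it was the member with the fewest counts. The HET range enclosed that of KO, and replicate 3 was highest in WT and lowest in HET. The log2FC was −0.09 in HET (standard error 0.24, interval −0.62 to 0.44) and −0.03 in KO (interval −0.56 to 0.50).

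Variation between libraries of the same genotype was therefore larger than that between genotypes for several members, and it was shared among them. Replicate 3 was the highest library in all 3 genotypes for 3 receptor genes (*Grm2*, *Grm3* and *Grik3*) and the lowest in all 3 for 2 (*Grm5* and *Grm7*). Over all genes these shares were 8.22% and 8.86%. Counted in either direction, replicate 3 was extreme in all 3 genotypes for 5 of 9 receptor genes and 17.1% of all genes, replicate 1 for 4 of 9 (*Grm2*, *Grm7*, *Grik2* and *Grik5*) and 21.6%, and replicate 2 for 0 of 9 and 6.64%. The number 3 was singled out after the values were seen, and what the numbers stand for is not given in the sources used here. On average replicate 3 exceeded the mean of replicates 1 and 2 by 0.80 on the log2 scale for *Grm2* (0.80 in WT, 0.71 in HET and 0.88 in KO). For *Grm5* it fell by 0.53 (−0.59 in WT, −0.46 in HET and −0.545 in KO).

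The replicate number accounted for 97.4% of the sum of squares within genotypes for *Grm2*, 93.99% for *Grm5* and 91.8% for *Grm7*, against a median of 50.1% over all genes. For *Grm4* and *Grik1* it accounted for 4.98% and 0.275%. WT replicate 3 took part in this pattern of *Grm2*, *Grm5* and *Grm7*, although the first principal component did not set it apart from the other WT libraries.

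**Figure D4:**
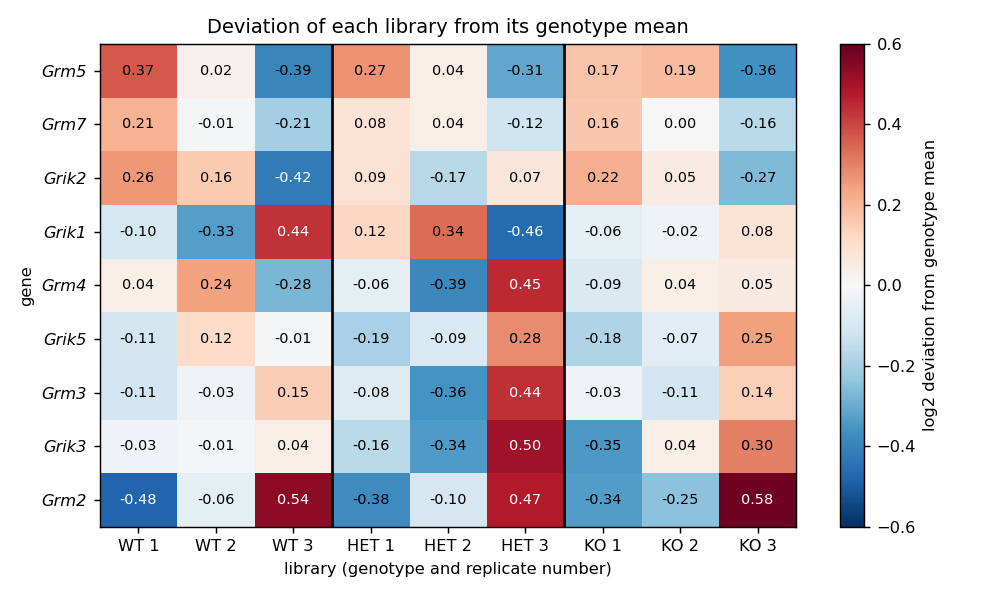
Deviation of log2(normalized count + 1) from the mean of its genotype for each receptor gene (rows) and library (columns, genotype and replicate number), with red for higher and blue for lower. In the replicate 3 columns *Grm2* is high (0.54, 0.47 and 0.58) and *Grm5* low (−0.39, −0.31 and −0.36) in all 3 genotypes, while *Grm4* and *Grik1* take opposite signs in HET replicate 3.

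*Grm2* and *Grm5* moved against each other from library to library. Their deviations from the genotype means had a Pearson r of −0.99 over the 9 libraries, and among 14238 genes *Grm5* ranked 1 from the most negative for *Grm2*. Of all genes, 2.16% had an r below −0.9 with *Grm2* and 1.99% an r above 0.9. *Grm7* moved with *Grm5* (r = 0.94) and against *Grm2* (r = −0.94), and *Grik3* moved with *Grik5* (r = 0.87) and *Grm3* (r = 0.84). A separate opposition was that of *Grm4* and *Grik1* (r = −0.94). These are descriptions over 9 libraries, and genes measured in the same library share its depth and tissue composition.

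Some members varied with markers of cell types, of neurons as well as of astrocytes. Over the 9 libraries, *Grik2* had a Pearson r of 0.93 with the mean log2 value of the 14 markers, and 0.92 without HET replicate 3 and KO replicate 3. *Grm5* and *Grm7* had an r of 0.75 and 0.73 with the same markers, and *Grm2* had −0.80. HET replicate 3 departed from this relation, since *Grm5* was low there although the summed medium spiny neuron markers (131035) lay within the range of the other HET libraries. With the cortical markers *Grm2* had an r of 0.82, *Grm5* −0.75 and *Grik2* −0.85. With the 10 astrocyte markers *Grm5* had an r of −0.85, *Grm7* −0.78 and *Grik2* −0.62. For *Grm5* and *Grm7* these values lay farther from 0 than those with the medium spiny neuron markers. Without HET replicate 3 and KO replicate 3 this order was reversed. The r with the medium spiny neuron and the astrocyte markers was then 0.84 and −0.80 for *Grm5*, and 0.75 and −0.67 for *Grm7*. Other marker lists gave values of similar size. *Grik3* had an r of −0.76 with the microglia markers, and *Grik2* one of 0.76 with the striatal interneuron markers. How many of all genes reach such values was not counted. The share of tissue composition in these values was not tested.

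**Figure D5:**
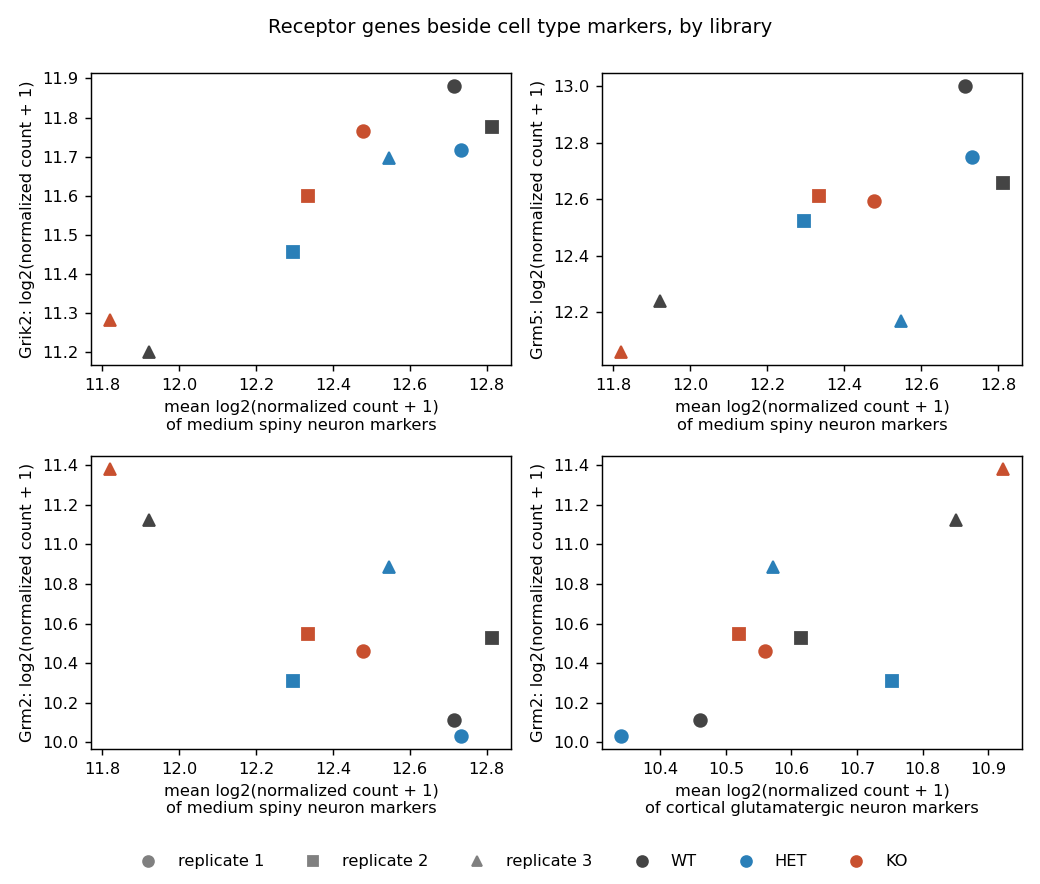
*Grik2*, *Grm5* and *Grm2* in each library as log2(normalized count + 1) against the mean log2 value of the 14 medium spiny neuron markers, and *Grm2* against that of the 11 cortical markers, with colours for genotype and shapes for replicate number. *Grik2* rises with the medium spiny neuron markers (r = 0.93), and HET replicate 3 (blue triangle) lies low for *Grm5* (4611 normalized counts) at a middle marker value.

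The genes whose values were most like each member over the 9 libraries were listed as a description, among 14238 other genes. *Grm2* was most like *Aqp11* (Pearson r = 0.97, Spearman rho = 0.90) and *Tox* (0.97 and 0.95). *Grm5* was most like *Cacna1e* (r = 0.98, rho = 0.95) and *Lmo7* (0.98 and 0.88), and *Grm7* was most like *Hrk* (r = 0.97, rho = 0.90) and *Rbm24* (0.96 and 0.83). *Grm3* was closest to *Calu* (r = 0.97, rho = 0.88) and *Pik3ip1* (0.97 and 0.87), the former with an r of 0.85 without HET replicate 3 and KO replicate 3.

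The nearest genes to *Grm4* were *Pde4dip* (r = 0.96, rho = 0.97) and *March4* (0.94 and 0.88). For *Grik2* they were *Htr1b* (r = 0.97, rho = 0.93) and *Crym* (0.97 and 0.93), and for *Grik1* they were *Arf2* (r = 0.96, rho = 0.98) and *Mrpl14* (0.96 and 0.83). *Grik3* was nearest to *Cers6* (r = 0.97, rho = 0.87) and *Slc39a9* (0.95 and 0.98). *Grik5* had the closest matches, *Med15* (r = 0.99, rho = 0.98) and *Cdc42bpb* (0.99 and 0.95), and 7.85% of all genes had an r above 0.9 with its deviations from the genotype means.

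Genes that act with these receptors were followed in 5 lists, which hold Gq signalling, Gi/o signalling, receptor partners, kainate auxiliary and scaffold proteins, and glutamate uptake. Of 72 genes listed, 70 were tested, and 0 had an adjusted p under 0.05 in any comparison (limma). At an unadjusted p under 0.05, 1 gene was lower in HET, 1 was lower in KO and 1 was higher in KO than in HET. Each is 1.43% of the genes tested from these lists, near the 1.11%, 0.822% and 1.31% of all genes. The median log2FC over the lists was −0.0050 in HET and 0.025 in KO.

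The genes at the unadjusted threshold were the group I partners *Homer1* (in KO) and *Homer2* (in HET and between KO and HET), which encode the adaptors between metabotropic receptors and Shank proteins. *Homer1* had 6229.6, 6000.1 and 4814 normalized counts in WT and 5291, 3897 and 4629 in KO, with a log2FC of −0.30 (standard error 0.13, adjusted p = 0.999 from limma). *Homer2* had 1694, 1419.6 and 1650.3 in WT, 1291, 1366 and 1376 in HET, and 1586, 1673 and 1663 in KO. Its log2FC was −0.24 in HET (standard error 0.092) and 0.29 between KO and HET, both with an adjusted p near 1 (0.999 and 0.99985, limma). The HET libraries of *Homer2* lay below all WT and KO libraries. Groups did not overlap for 4.45% of all genes in HET against WT and for 4.45% in KO against HET. The Gq signalling list (16 genes) and the Gi/o signalling list (22 genes) held 0 genes with an unadjusted p under 0.05 whichever genotypes were compared, as did the 4 glutamate uptake genes. *Neto1* and *Neto2*, the auxiliary subunits of kainate receptors, had log2FC values of −0.06 and −0.27 in KO, with unadjusted p of 0.611 and 0.0766 (adjusted p = 0.999 for both, limma).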

How the data were processed

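Striatal RNA of 9 mice (3 WT, 3 HET and 3 KO) was measured by RNA-seq. The deposited signal is a normalized count for each gene. To make it, the authors quantified transcripts with Salmon 0.9.1 on GRCm38, corrected for GC bias, summed them per gene with tximport and divided them by size factors of DESeq2 1.19.11 in R 3.6.0. Whole reads were not recovered from these values, so that depth is unknown and no count model was fitted. No 2 libraries shared an identical nonzero value at any gene.

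Columns were matched to samples by the titles, and genotype and replicate number were taken from the titles. Receptor genes were found by symbol in GENCODE, which also gave coordinates and exon lengths on GRCm38. Values were transformed as log2(normalized count + 1), which understates changes of genes with low counts. Genes that reached 10 in 3 or more libraries were fitted with limma 3.58.1 (trend option, R 4.3.3) over the 9 libraries with genotype as the factor and no covariate, with Benjamini-Hochberg adjusted p-values and a threshold of 0.05. For each receptor gene an exact permutation test (two-sided) was run as well. The fit was tested on simulated data. Per-kilobase levels divide by the merged exons of a gene, and likeness between genes was described with Pearson r and Spearman rho. Figures were drawn with matplotlib 3.10.9.

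The receptor genes and all lists were chosen with earlier results of these data known. The text names the 9 members, list genes with an unadjusted p under 0.05, the 2 genes most like each member, and *Neto1*, *Neto2* and *Grik4* for their roles. *Shank3* and cell type markers are named as checks, and genes under the closing observations were chosen after their values were seen.

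Pairing by replicate number was checked by correlating the deviations of same-numbered libraries from their genotype means over all genes. HET and KO libraries correlated at 0.52, 0.28 and 0.51, and these values come from the data and not from the labels. Libraries of different numbers were not correlated, so that a pairing by number is not shown. WT and KO libraries correlated at 0.24, −0.22 and 0.024, and WT and HET libraries at 0.32, −0.014 and 0.0054. Alternatives were other filters, pseudocounts, normalizations and variance priors, array weights, fits of the compared genotypes alone, a replicate block and leaving out libraries. Overexpressing mice and single exons were not analysed here. A list of other receptor genes is not reported here.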

Additional observations from a re-analysis of the deposited data

How the results depend on the processing

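The count of 0 receptor genes and 0 of all genes with an adjusted p under 0.05 held in each comparison under 21 alternatives, 9 of which left out a single library. The adjusted p of a receptor gene was at least 0.974 in each of them (limma). Filters, variance priors, fits of the compared genotypes alone, the replicate block and the omission of a library of the third genotype leave a log2FC as it was, and 244 of 567 fitted values of receptor genes equalled the reported ones to 6 decimals. Of the 323 that moved, 63 changed direction. For 3 of the 27 values the direction held, but without 1 library *Grm5* in KO shrank from −0.21 to −0.027 (without WT replicate 1), *Grm4* in KO from −0.15 to −0.027 (without WT replicate 2) and *Grm2* between KO and HET from 0.39 to 0.094 (without KO replicate 3). Under the replicate block, the counts of all genes at an unadjusted p under 0.05 rose from 158 to 365 in HET, from 117 to 310 in KO and from 186 to 318 between KO and HET, and those of receptor genes from 0 to 0, 2 and 1, while no adjusted call changed. Other settings that moved the unadjusted counts by over 1.5 times were array weights (395 in KO), a minimum value of 50 (76 in KO), a prior with no trend (176 in KO) and leaving out both HET replicate 3 and KO replicate 3 (271 in HET and 217 in KO). Leaving out single libraries moved them to between 116 and 393 in HET, 70 and 289 in KO, and 141 and 298 between KO and HET.

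When single libraries were left out, the log2FC in HET ran from −0.42 to 0.090 for *Grm2*, −0.068 to 0.33 for *Grm3*, −0.27 to 0.15 for *Grm4*, −0.35 to 0.031 for *Grm5*, −0.18 to 0.023 for *Grm7*, −0.26 to 0.14 for *Grik1*, −0.21 to 0.13 for *Grik2*, −0.34 to 0.084 for *Grik3* and −0.17 to 0.066 for *Grik5*. In KO it ran from −0.084 to 0.48 for *Grm2*, −0.012 to 0.13 for *Grm3*, −0.29 to −0.027 for *Grm4*, −0.41 to −0.027 for *Grm5*, −0.20 to 0.0034 for *Grm7*, −0.20 to 0.18 for *Grik1*, −0.28 to 0.063 for *Grik2*, −0.19 to 0.14 for *Grik3* and −0.13 to 0.088 for *Grik5*. Between KO and HET it ran from 0.094 to 0.62 for *Grm2*, −0.27 to 0.13 for *Grm3*, −0.30 to 0.12 for *Grm4*, −0.21 to 0.12 for *Grm5*, −0.10 to 0.062 for *Grm7*, −0.18 to 0.22 for *Grik1*, −0.18 to 0.059 for *Grik2*, −0.12 to 0.30 for *Grik3* and −0.095 to 0.17 for *Grik5*.

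Without both HET replicate 3 and KO replicate 3, signs changed in HET for *Grm3* (−0.068), *Grm5* (0.0018), *Grik1* (0.14) and *Grik2* (−0.033), in KO for *Grm2* (−0.084), *Grm3* (−0.012) and *Grik2* (0.063), and between KO and HET for *Grm3* (0.057), *Grm4* (0.096), *Grm7* (0.0027), *Grik1* (−0.22) and *Grik2* (0.096). With array weights they changed for *Grik1* (0.12) and *Grik2* (−0.050) in HET, for *Grik1* (0.0075) in KO, and for *Grm4* (0.012), *Grik1* (−0.12) and *Grik2* (0.031) between KO and HET. Scaling to equal sums changed that of *Grik2* in HET (−0.0016) and *Grik5* in KO (0.0041). In the order by level, *Grm2* moved to rank 7 and *Grm7* to rank 6 with the longest coding transcript as length and with the WT libraries alone. The cause of these changes was not tested. The number of reads behind each value is unknown.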

Other observations

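Among the 70 tested genes that act with the receptors, 11 were highest and 4 lowest in replicate 3 of all 3 genotypes, against 8.22% and 8.86% of all genes. Of the 16 Gq signalling genes, 3 were highest (*Plcb4*, *Itpr2* and *Daglb*) and 2 lowest (*Plcb1* and *Prkcb*), although *Plcb1* and *Plcb4* both encode phospholipases C. Of the 22 Gi/o signalling genes, 4 were highest (*Adcy2*, *Gnai2*, *Kcnj6* and *Kcnj9*) and 1 lowest (*Rgs14*). Of the 17 receptor partners, 3 were highest (*Elfn1*, *Homer3* and *Siah1a*) and 0 lowest, and of the 11 kainate auxiliary and scaffold genes 0 were highest and 1 lowest (*C1ql2*). Of the 4 glutamate uptake genes, *Slc1a2* was highest in replicate 3 of all 3 genotypes. *Slc1a3*, like *Slc1a2*, encodes a transporter of astrocytes. It was lowest in replicate 3 of HET (14196) and KO (14536) and highest in replicate 3 of WT (17909). Of the 10 astrocyte markers, 1 was highest (*Gjb6*) and 0 lowest. Of the 14 medium spiny neuron markers, 4 were lowest in replicate 3 of all 3 genotypes (*Ppp1r1b*, *Penk*, *Tac1* and *Pdyn*) and 0 were highest. Of the 11 cortical markers, 2 were highest (*Rorb* and *Fezf2*) and 0 lowest. These genes were named after their values were seen, and the cause was not tested.

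The summed count of 10 oligodendrocyte markers did not follow the same libraries. It was 265545 in WT replicate 3, the highest of the 9 libraries, and 140471 in KO replicate 3, the lowest. *Grm2* was the highest of its genotype in both libraries, with 2229 and 2662 normalized counts. The part of tissue composition in these values was not tested.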
